A study of Mus musculus with 9 samples.

Results

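The genes followed across the groups were the non-coding RNAs H19, Meg3 and Rian and the protein-coding genes Dlk1, Peg3, Plagl1, Mest, Grb10, Ndn and Zdbf2. All 10 are imprinted genes of the growth-control network. They were chosen by gene symbol, with earlier results of these data known. Counts of them beside shares of all genes are thus descriptions. Each had 1 probe set on the array, so that 10 of 24011 measured genes were followed. The probe sets carry Entrez gene numbers as names, 14955 for H19, 17263 for Meg3, 75745 for Rian, 13386 for Dlk1, 18616 for Peg3, 22634 for Plagl1, 17294 for Mest, 14783 for Grb10, 17984 for Ndn and 73884 for Zdbf2. All 10 passed the filter on dim genes and entered the test. Rian was above the filter level on 8 of 9 arrays. Dlk1 lay near it, with a mean of 4.44 over the 9 arrays beside filter levels of 3.89 to 4.02.

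An imprinted gene is read mainly from the copy inherited from one parent, under the control of DNA methylation that was laid down on one parental copy in the egg or the sperm. That methylation can lie on the silent or on the active copy, depending on the locus. Many genes that are read from the paternal copy favour growth, many that are read from the maternal copy restrain it, and a group of them is high in fetal and stem-like cells and changes together when such cells stop dividing. The zinc-finger protein Plagl1, also called Zac1, is known to bind and regulate other members of this network. In skeletal muscle, H19 is abundant in differentiating myoblasts, Peg3, also called Pw1, marks muscle stem and interstitial progenitor cells, and Dlk1 and the RNAs of its locus are best known from fetal and regenerating muscle. The arrays measured total transcript and did not separate the parental copies.

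The cells were mouse primary myoblasts grown from satellite cells, the stem cells of skeletal muscle. They were expanded in medium with 20% fetal bovine serum and basic FGF, moved to 2% horse serum and collected after 24 hours, with 3 arrays of mock-treated control cells, 3 of cells given BMP4 at 100 ng/ml and 3 of cells given GREM1 at 500 ng/ml. BMP4 is a ligand of the bone morphogenetic protein receptors, and GREM1, a secreted protein, binds such ligands and keeps them from the receptors. All groups shared the low-serum medium, in which myoblasts start to differentiate. The labels give no strain, age or number of animals, and leave unsaid if the replicates came from separate cultures, so that p-values speak of the spread among these arrays, which may be technical.

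The deposited values are log2 expression values made by robust multi-array average, with array medians between 5.00 and 5.12. With 3 arrays a group, precision is limited by their number. Differences are in log2 units with the standard error (SE) from limma, and adjusted p-values are Benjamini-Hochberg values over the 17141 genes tested, with a threshold of 0.05. Myogenic markers were present: Myod1, Myog, Pax7 and Des lay at 9.35, 10.01, 7.59 and 11.05 in the controls. The mean level of 14 fibroblast genes was 4.47 to 4.48 in the controls, 4.43 to 4.56 with BMP4 and 4.44 to 4.48 with GREM1. Of these 14 genes 9 passed the filter, with Gsn, Cd34 and Thy1 at means of 7.27, 5.76 and 5.63 over the 9 arrays. Pdgfra, Dpt and Lum were among those below it. The means of endothelial, leukocyte and Schwann cell genes spanned 4.09 to 4.26, 4.32 to 4.51 and 4.45 to 4.89 over the 9 arrays. Of these lists 6 of 10, 6 of 11 and 4 of 6 genes passed the filter. Ptprc, Adgre1 and S100b lay below it, while Cd68 and Laptm5 of the leukocyte list had means of 6.49 and 7.81. Of the Schwann cell list, Erbb3, a neuregulin receptor gene, was at 7.91, 8.10 and 6.62 in the controls, 7.87, 7.68 and 6.64 with BMP4 and 8.94, 8.86 and 8.37 with GREM1, a difference of 1.18 ± 0.41 between GREM1 and control (limma adjusted p = 0.146). The mean of 9 adipocyte genes was 4.67 to 4.81 in the controls, 4.73 to 4.88 with BMP4 and 4.49 to 4.63 with GREM1. Of these 9 genes 5 passed the filter, with Lpl, Cd36 and Pparg at means of 7.19, 6.62 and 6.41, while Adipoq and Fabp4 lay below it. Pparg fell with GREM1 against control (-1.22). Of the leukocyte list, Laptm5 rose (1.14) and Cd14 fell (-0.92) with GREM1 against control, and of 9 pericyte and smooth muscle genes, with means of 5.12 to 5.40 over the arrays, Mcam and Cspg4 were higher (1.06 and 0.56) and Abcc9 lower (-0.91) with BMP4 than with GREM1. The part of such cells in the results was not tested.

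The clearest contrast was between the ligand and its antagonist. Plagl1 and Peg3 were higher with BMP4 than with GREM1, Mest and Grb10 were lower, and the control mean lay between them for all 4 genes. These 4 of the 10 genes passed the test between BMP4 and GREM1, where 6.45% of all tested genes passed (3.62% higher and 2.83% lower). Since the 10 were chosen with earlier results known, this count and those below do not test the group. Plagl1 alone also passed between GREM1 and control (1 of 10, where 4.29% of all tested genes passed, 2.08% higher and 2.21% lower). Between BMP4 and control 0 of the 10 passed in limma, where 0.117% of all tested genes passed (0.0933% higher and 0.0233% lower). An unadjusted p under 0.05 was found for 1 of the 10, Plagl1, between BMP4 and control, for 4 between GREM1 and control and for 5 between BMP4 and GREM1, against 8.02%, 20.0% and 19.4% of all tested genes. Values of H19, Dlk1, Ndn, Meg3, Rian and Zdbf2 did not pass in any comparison of this main fit. With the replicate number as a block, Peg3, Mest, Grb10 and Zdbf2 also passed between GREM1 and control, where 11.6% of all tested genes passed. Rian and Zdbf2 then also passed between BMP4 and GREM1, where 12.8% did. The comparisons with control share the same control arrays. In RNA from whole cultures, fewer cells of a type and less RNA per cell cannot be told apart.

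**Figure D1:**
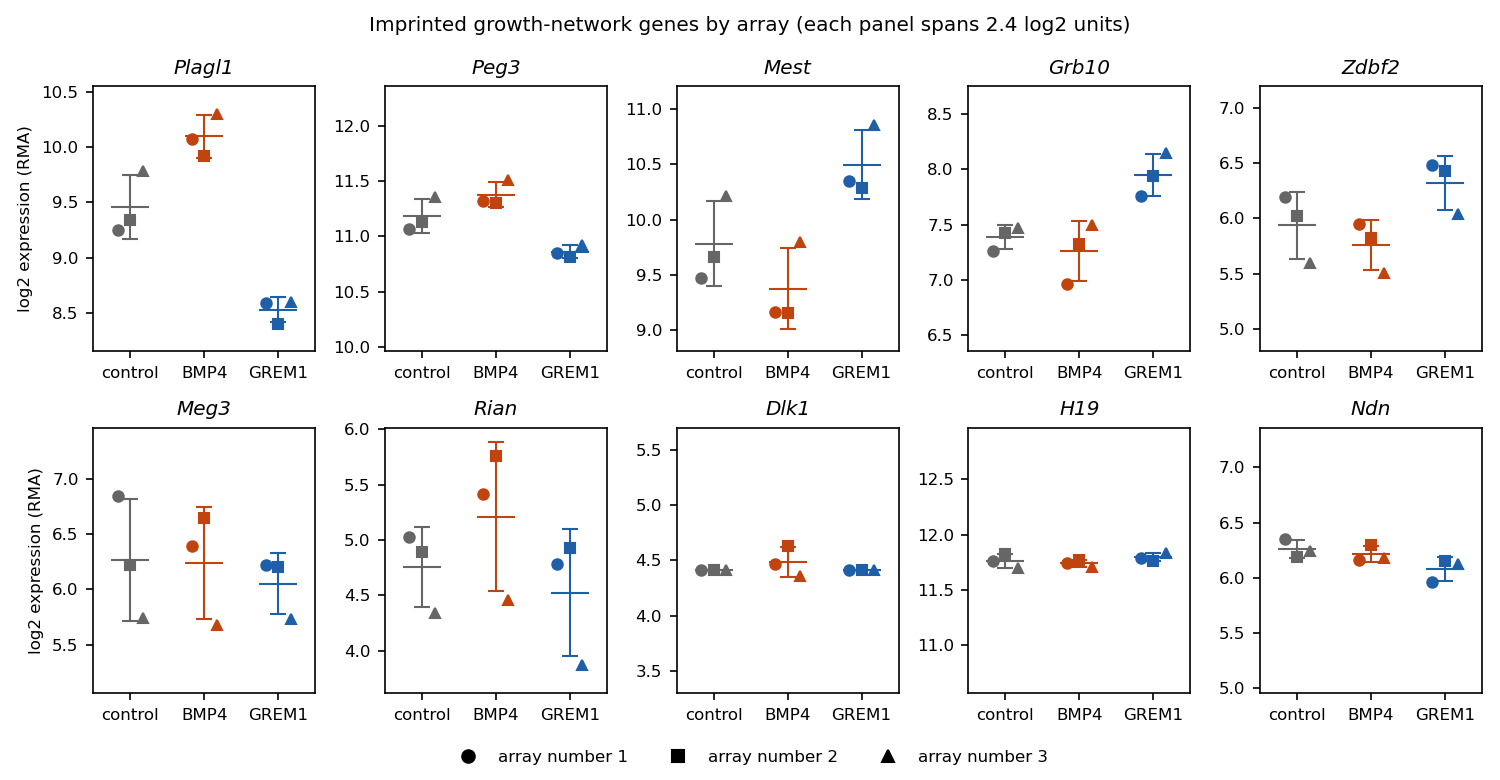
Log2 expression of each of the 10 genes on the 9 arrays, by group, with the group mean and its SD; symbols give the array number, and each panel has its own axis of equal span. Plagl1 and Peg3 are lowest and Mest and Grb10 highest on the GREM1 arrays, whereas H19 lies between 11.70 and 11.83 on all arrays.

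**Figure D2:**
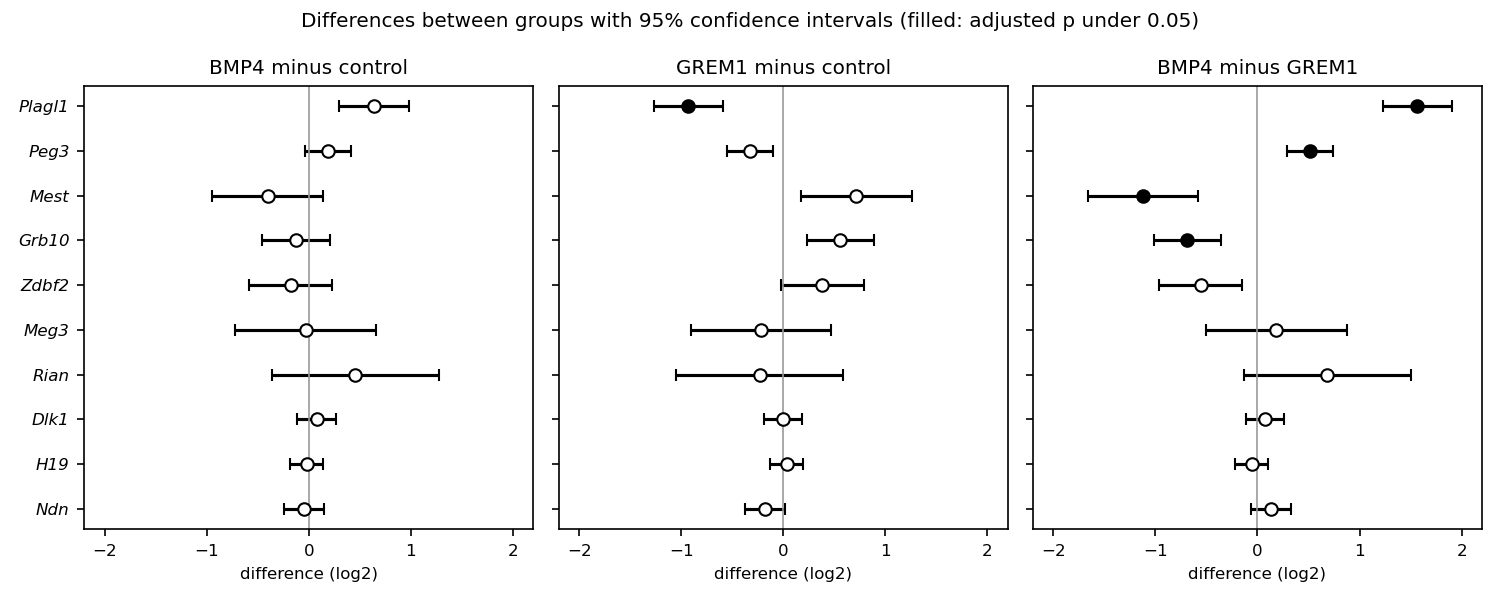
Difference of each of the 10 genes in log2 units in the 3 comparisons, with 95% confidence intervals from limma; filled points have an adjusted p under 0.05. Plagl1 is filled for GREM1 minus control, and Plagl1, Peg3, Mest and Grb10 are filled for BMP4 minus GREM1.

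Promoter sequence is shown for the 4 genes that passed, since DNA methylation at imprinted loci lies on CpG dinucleotides. The stretches shown need not be the regions that carry the imprint. Each stretch runs from 250 to 51 bases before a start site in RefSeq (GRCm38.p6), 5' to 3' on the strand of the gene, with CpG in capitals. Where RefSeq lists several starts, as for Mest (3) and Grb10 (2), the one with the most CpG is shown.
Plagl1 (chr10:13090582-13090781, plus strand): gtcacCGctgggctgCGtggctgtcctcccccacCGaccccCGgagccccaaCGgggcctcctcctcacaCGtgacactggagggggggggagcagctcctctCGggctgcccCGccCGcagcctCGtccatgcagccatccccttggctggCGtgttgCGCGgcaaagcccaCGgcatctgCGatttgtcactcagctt
Peg3 (chr7:6730470-6730669, minus strand): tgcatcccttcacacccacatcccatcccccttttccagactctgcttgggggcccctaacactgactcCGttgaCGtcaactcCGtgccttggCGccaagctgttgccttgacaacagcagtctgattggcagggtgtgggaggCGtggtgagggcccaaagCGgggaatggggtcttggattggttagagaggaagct
Mest (chr6:30737800-30737999, plus strand): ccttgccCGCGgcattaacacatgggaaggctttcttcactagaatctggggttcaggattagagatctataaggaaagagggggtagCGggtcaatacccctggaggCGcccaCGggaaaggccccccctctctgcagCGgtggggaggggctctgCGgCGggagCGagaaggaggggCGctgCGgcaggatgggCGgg
Grb10 (chr11:12037471-12037670, minus strand): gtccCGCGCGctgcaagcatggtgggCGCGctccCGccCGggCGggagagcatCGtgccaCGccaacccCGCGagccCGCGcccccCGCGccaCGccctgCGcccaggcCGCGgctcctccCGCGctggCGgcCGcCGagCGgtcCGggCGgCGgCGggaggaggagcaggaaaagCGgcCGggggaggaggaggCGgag
The 200 bases before Grb10 hold 33 CpG, a number that 1.07% of 32851 RefSeq windows of the same length reach. Those of Plagl1 hold 15 (reached by 17.84% of windows), those of Mest 12 (24.32%) and those of Peg3 6 (42.22%), and the median window holds 4. Since the start with the most CpG was taken, these shares describe the stretch shown and not the gene: the other Grb10 start has 5 CpG (47.41% of windows), and the other Mest starts have 12 and 4 (24.32% and 54.22%). The motif CANNTG, the E-box of myogenic and other basic helix-loop-helix factors, occurs 2 times before Plagl1, 1 time before Mest and 0 times before Peg3 and Grb10, and 59.05% of all windows hold it. The palindrome GGCGCC, a site that BMP-activated SMADs can bind, occurs 1 time each before Peg3 and Mest and 0 times before Plagl1 and Grb10, with a share of 7.15% of all windows. Both motifs read the same on both strands. These matches describe the letters in this window, and methylation and factor binding were not measured.

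Plagl1 encodes a zinc-finger transcription factor that can halt the cell cycle and is read from the paternal copy. Its 3 control arrays were at 9.25, 9.34 and 9.78, its BMP4 arrays at 10.07, 9.92 and 10.30 and its GREM1 arrays at 8.59, 8.40 and 8.60. The 3 groups did not overlap: all BMP4 arrays lay above the controls and all GREM1 arrays below them. Plagl1 was higher with BMP4 than with GREM1 by 1.57 ± 0.15 (2.96-fold, limma adjusted p = 0.000353) and passed in all 19 alternative analyses (highest adjusted p = 0.00306). It fell with GREM1 against control by 0.93 ± 0.15 (1.90-fold, limma adjusted p = 0.0120). Over 19 alternatives that adjusted p ran from 0.00165 to 0.0577, and the call was lost without GREM1 replicate 2, where the difference was -0.86. With BMP4 against control Plagl1 was at 0.64 ± 0.15 (limma adjusted p = 0.284, 95% confidence interval 0.30 to 0.98) and did not pass.

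Peg3 encodes a zinc-finger protein that is read from the paternal copy and takes part in stress and cell death responses. Its values were 11.07, 11.13 and 11.36 in the controls, 11.32, 11.30 and 11.51 with BMP4 and 10.85, 10.81 and 10.92 with GREM1. The GREM1 arrays lay below all others, and the control and BMP4 arrays overlapped. Peg3 was higher with BMP4 than with GREM1 by 0.51 ± 0.10 (1.43-fold, limma adjusted p = 0.0155). The call was lost without BMP4 replicate 3, GREM1 replicate 1 or GREM1 replicate 2 (limma adjusted p = 0.0560, 0.0631 and 0.0656), within a range of 0.00305 to 0.0656 over 19 alternatives. Against control Peg3 was at -0.32 ± 0.10 with GREM1 (limma adjusted p = 0.104) and at 0.19 ± 0.10 with BMP4 (limma adjusted p = 0.663). The first of these passed with the replicate number as a block (limma adjusted p = 0.0303) and after quantile normalization once more (-0.40, limma adjusted p = 0.0307, in a range of 0.0303 to 0.265 over 19 alternatives).

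The neighbours of Peg3 in its imprinted domain on chromosome 7 were read beside it. Zim1, a zinc-finger gene next to Peg3 that is read from the maternal copy, was at 8.81, 8.87 and 9.05 in the controls, 9.13, 8.97 and 9.33 with BMP4 and 8.41, 8.47 and 8.40 with GREM1. It fell with GREM1 against control by 0.48 ± 0.11 (limma adjusted p = 0.0378) and was higher with BMP4 than with GREM1 by 0.72 ± 0.11 (limma adjusted p = 0.00405). Usp29, a ubiquitin protease gene that is read from the paternal copy and starts beside Peg3, was at 0.43 ± 0.11 between BMP4 and GREM1 and did not pass (limma adjusted p = 0.0523). Between GREM1 and control Usp29 was at -0.28 ± 0.11 (limma adjusted p = 0.201). Its GREM1 arrays were at 3.76, 3.99 and 3.95, near the filter levels of 3.89 to 4.02. Zim3 lay below the filter. The 3 tested genes of the domain, which are read from different parental copies, all had their lowest group mean with GREM1. The neighbours named here and below were chosen after their values were seen, so shared directions are descriptions.

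Mest, read from the paternal copy, encodes an enzyme-like protein of the endoplasmic reticulum that is known from fetal mesoderm and growing fat cells. Its values were 9.47, 9.66 and 10.21 in the controls, 9.17, 9.16 and 9.80 with BMP4 and 10.35, 10.29 and 10.86 with GREM1. All GREM1 arrays lay above all other arrays, while control and BMP4 arrays overlapped. Mest was lower with BMP4 than with GREM1, at -1.12 ± 0.24 (2.18-fold, limma adjusted p = 0.0248). The call was lost without BMP4 replicate 1 or 2 (limma adjusted p = 0.0774 and 0.0911) or without GREM1 replicate 1, 2 or 3 (limma adjusted p = 0.0650, 0.0537 and 0.0721), and the range over 19 alternatives was 0.000109 to 0.0911. Against control Mest was at 0.72 ± 0.24 with GREM1 (limma adjusted p = 0.130) and at -0.41 ± 0.24 with BMP4 (limma adjusted p = 0.707). Mest passed for GREM1 against control with the replicate number as a block (limma adjusted p = 0.00173, in a range of 0.00173 to 0.311 over 19 alternatives). Without the 3 arrays numbered 3 it passed there too (0.75, limma adjusted p = 0.0246).

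An intron of Mest holds the hairpin of the microRNA Mir335, whose products are shown with the seed (bases 2 to 8) in capitals, RefSeq GRCm38.p6, plus strand, because host and hairpin were measured by separate probe sets.
mmu-miR-335-5p (chr6:30741314-30741336): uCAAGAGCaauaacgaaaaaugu
mmu-miR-335-3p (chr6:30741354-30741375): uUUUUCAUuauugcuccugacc
The probe set of the hairpin does not tell these arms apart, and its values lay near the filter level, from 3.29 to 4.37. It was at -0.33 between BMP4 and GREM1, with an SE of 0.19 (limma adjusted p = 0.413). Copg2, a coat protein gene that neighbours Mest, was at -0.35 ± 0.11 (limma adjusted p = 0.101) and Klf14, another imprinted gene nearby, at -0.10 (limma adjusted p = 0.669).

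Grb10 encodes an adapter that binds the insulin and IGF1 receptors and restrains their signals, and outside neurons it is read from the maternal copy. Its values were 7.26, 7.42 and 7.47 in the controls, 6.96, 7.32 and 7.49 with BMP4 and 7.76, 7.94 and 8.14 with GREM1. The GREM1 arrays were again above all others. Grb10 was lower with BMP4 than with GREM1, at -0.69 ± 0.15 (1.61-fold, limma adjusted p = 0.0245). The call was lost without BMP4 replicate 1 or 2, without GREM1 replicate 2 or 3, without the 3 arrays numbered 3, and in a fit of these 2 groups alone (limma adjusted p = 0.0568, 0.0620, 0.0809, 0.0723, 0.0502 and 0.0554), in a range of 0.00128 to 0.0809 over 19 alternatives. Against control Grb10 was at 0.56 ± 0.15 with GREM1 (limma adjusted p = 0.0651). It passed there with the replicate number as a block, without BMP4 replicate 1 or 3, with array weights and after quantile normalization once more (limma adjusted p = 0.00510, 0.0424, 0.0480, 0.0494 and 0.0464, in a range of 0.00510 to 0.174). With BMP4 against control it was at -0.13 ± 0.15 (limma adjusted p = 0.850).

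Ddc, the aromatic amino acid decarboxylase gene that neighbours Grb10 on chromosome 11, had the same order of groups. It was at 6.34, 6.36 and 6.07 in the controls, 6.36, 6.42 and 5.83 with BMP4 and 6.94, 6.99 and 6.78 with GREM1. It was lower with BMP4 than with GREM1, at -0.70 ± 0.16 (limma adjusted p = 0.0290), and at 0.65 ± 0.16 between GREM1 and control (limma adjusted p = 0.0512). The latter passed in 8 of 19 alternatives, among them the fit of only these 2 groups.

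Genes of insulin and IGF receptor signalling, the pathway on which Grb10 acts, were counted as a list of 33 tested genes. Between GREM1 and control 3 rose and 2 fell, where 2.08% of all tested genes rose and 2.21% fell. The median difference was 0.19 against -0.0057 over all tested genes. The rises were in Rptor, a subunit of the mTORC1 kinase complex (0.79), in the IGF-binding protein gene Igfbp3 (0.62) and in the IGF1 receptor gene Igf1r (0.60 ± 0.11, limma adjusted p = 0.0211). The falls were in Igfbp7 (-0.78), related to the IGF-binding proteins, and in Pik3r1, a regulatory subunit of phosphoinositide 3-kinase (-0.36). Between BMP4 and GREM1 2 were higher (Igfbp7 and Pik3r1) and 5 lower (Rptor, Igfbp3, Igf1r, the adapter Gab1 and Pik3r2), where 3.62% and 2.83% of all tested genes were, with a median of -0.23. The insulin receptor gene Insr was at 0.43 ± 0.14 between GREM1 and control (limma adjusted p = 0.127). Between BMP4 and control 0 of the 33 passed in limma, where 0.117% of all tested genes did. An unadjusted p under 0.05 was found there for 2 of the 33, against 8.02% of all tested genes.

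Zdbf2, a paternally read gene for a zinc-finger protein needed for normal growth after birth, was at 6.19, 6.02 and 5.60 in the controls, 5.95, 5.83 and 5.51 with BMP4 and 6.49, 6.43 and 6.04 with GREM1. The GREM1 arrays lay above all BMP4 arrays and overlapped the controls. The differences were -0.56 ± 0.18 between BMP4 and GREM1 (limma adjusted p = 0.115), 0.38 ± 0.18 between GREM1 and control (limma adjusted p = 0.281) and -0.18 ± 0.18 between BMP4 and control (limma adjusted p = 0.827). Between GREM1 and control Zdbf2 passed only with the replicate number as a block (limma adjusted p = 0.0150). Between BMP4 and GREM1 Zdbf2 passed with that block, with array weights and without the 3 arrays numbered 3 (limma adjusted p = 0.00184, 0.0374 and 0.0331, in a range of 0.00184 to 0.339 over 19 alternatives). Its neighbour Adam23 was at -0.36 ± 0.13 in the same comparison (limma adjusted p = 0.145).

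Meg3 and Rian are long non-coding RNAs of the Dlk1-Meg3 domain on chromosome 12, read from the maternal copy. Meg3 was at 6.84, 6.22 and 5.74 in the controls, 6.39, 6.65 and 5.67 with BMP4 and 6.22, 6.21 and 5.73 with GREM1. The groups overlapped, and the spread within a group (SD 0.28 to 0.55) was larger than any difference between group means. Its difference between BMP4 and GREM1 was 0.19 ± 0.31, with a 95% confidence interval of -0.50 to 0.87. Rian, which hosts small nucleolar RNAs, was at 5.03, 4.89 and 4.34 in the controls, 5.41, 5.76 and 4.46 with BMP4 and 4.78, 4.93 and 3.87 with GREM1. It was at 0.68 ± 0.36 between BMP4 and GREM1 (limma adjusted p = 0.360). That difference passed with the replicate number as a block (limma adjusted p = 0.00992, in a range of 0.00992 to 0.689 over 18 alternatives). Without the 3 arrays numbered 3 it was 0.73 and passed as well (limma adjusted p = 0.0383).

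Dlk1, the paternally read gene of this domain, encodes a membrane protein related to Notch ligands that restrains fat cell formation and acts in muscle growth. Its deposited value was 4.41 in all control and GREM1 arrays, equal to the last digit on these 6 arrays, and 4.47, 4.63 and 4.36 with BMP4. Such ties occurred in at least 6 of 9 arrays for 150 of the 17141 tested genes, and the SD of Dlk1 within the control and GREM1 groups is 0. The Dlk1 values lie near the filter levels of 3.89 to 4.02. The difference of 0.075 ± 0.084 between BMP4 and control did not pass (limma adjusted p = 0.840). The other genes of the domain, Rtl1, Mirg and Dio3, were between -0.21 and 0.25 in all 3 comparisons and did not pass.

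Small RNAs encoded in the loci of the 10 genes were counted from a list of 49, of which 43 had a probe set and 14 passed the filter. In each comparison 0 of the 14 passed in limma, with 0 at an unadjusted p under 0.05 as well. For BMP4 minus control, GREM1 minus control and BMP4 minus GREM1, 0.117%, 4.29% and 6.45% of all tested genes passed. An unadjusted p under 0.05 was found for 8.02%, 20.0% and 19.4% of them. Mir668 and Mir1193, with the smallest p of the list, were at 0.23 between BMP4 and control and at -0.15 between GREM1 and control. A probe set for a hairpin can also read the longer host transcript.

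H19, a maternally read non-coding RNA that muscle cells make in large amounts and that is the precursor of miR-675, was at 11.76, 11.82 and 11.70 in the controls, 11.74, 11.77 and 11.71 with BMP4 and 11.79, 11.76 and 11.83 with GREM1. All 9 arrays lay within a range of 0.13, and the groups overlapped. The difference was -0.019 ± 0.072 between BMP4 and control (95% confidence interval -0.18 to 0.14) and 0.035 ± 0.072 between GREM1 and control (-0.13 to 0.20). The deposited values of all probe sets reached 12.7, and saturation of the H19 probes was not tested. Igf2, the growth factor gene that shares enhancers with H19 and is read from the paternal copy, was at 9.50, 10.04 and 9.52 in the controls, 10.20, 10.28 and 9.72 with BMP4 and 10.27, 10.45 and 10.06 with GREM1. It did not pass in any comparison of the main fit, with 0.38 ± 0.19 between BMP4 and control and 0.58 ± 0.19 between GREM1 and control (limma adjusted p = 0.655 and 0.122). The latter passed with the replicate number as a block.

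Ndn, read from the paternal copy of the Prader-Willi domain on chromosome 7, encodes necdin, which restrains E2F factors and favours myogenic differentiation. It was at 6.35, 6.19 and 6.24 in the controls, 6.16, 6.30 and 6.18 with BMP4 and 5.96, 6.16 and 6.13 with GREM1. The GREM1 arrays were below the others by a small margin, and the difference from control was -0.18 ± 0.088 (limma adjusted p = 0.297). Its neighbours Magel2, Mkrn3, Peg12, Snrpn, Ube3a and Atp10a did not pass in any comparison, with differences between -0.23 and 0.28.

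Counted by arrays alone, groups were apart, with no overlap, for 1 of the 10 genes between BMP4 and control (higher). That held for 11.2% of all tested genes, 5.31% higher and 5.90% lower. Between GREM1 and control 5 of the 10 were apart, 2 higher and 3 lower, against 24.0% of all tested genes, 11.3% higher and 12.7% lower. Between BMP4 and GREM1 6 were apart, 3 higher and 3 lower, against 24.5% of all tested genes, 12.3% higher and 12.2% lower. The 5 were Plagl1, Peg3 and Ndn, lower with GREM1, and Mest and Grb10, higher, and Zdbf2 joined them between BMP4 and GREM1. The median difference of the 10 genes was -0.025, -0.089 and 0.10 for BMP4 minus control, GREM1 minus control and BMP4 minus GREM1, against -0.0060, -0.0057 and 0 over all tested genes. Members differed in sign in each comparison.

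A list of 61 symbols of other imprinted genes, of which 56 were on the array and 46 were tested, gave the setting for the 10. Imprinting of the listed genes in these myoblasts was not measured. Between BMP4 and control 0 of 46 passed in limma, with 3 at an unadjusted p under 0.05, as had 8.02% of all tested genes. Between GREM1 and control 2 rose and 1 fell, where 4.29% of all tested genes passed, and between BMP4 and GREM1 2 were higher and 5 lower, where 6.45% passed. Cdkn1c, the maternally read gene of the cyclin-dependent kinase inhibitor p57, had the largest difference of the 46. It was at 5.61, 5.29 and 5.59 in the controls, 5.37, 5.35 and 4.96 with BMP4 and 7.39, 7.02 and 8.07 with GREM1, and rose with GREM1 against control by 2.00 ± 0.24 (3.99-fold, limma adjusted p = 0.00321). Kcnq1ot1, the non-coding RNA that silences Cdkn1c on the paternal copy, was lower with BMP4 than with GREM1 (-0.64, limma adjusted p = 0.0253) and at 0.49 between GREM1 and control (limma adjusted p = 0.0792). The other genes that passed were Zim1, the actin-binding protein gene Ppp1r9a (0.50 between GREM1 and control), Gab1 and Ddc (-0.54 and -0.70 between BMP4 and GREM1), and Asb4, a ubiquitin ligase subunit gene (0.46 between BMP4 and GREM1). The mean of Asb4 with GREM1 was 3.97, near the filter levels of 3.89 to 4.02. Between GREM1 and control Cdkn1c was called in all 19 alternatives. There the call of Ppp1r9a was lost without control replicate 1, 2 or 3, BMP4 replicate 1, 2 or 3, or GREM1 replicate 1 or 2, in a fit of only these groups and with no filter. That of Zim1 was lost without control replicate 1, 2 or 3, BMP4 replicate 1, or GREM1 replicate 1, 2 or 3, with median centring and without the arrays numbered 3. Between BMP4 and GREM1 the count of 7 fell to 4 without GREM1 replicate 1 or 2, and Cdkn1c, Gab1 and Zim1 were called in all 19 alternatives.

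**Figure D3:**
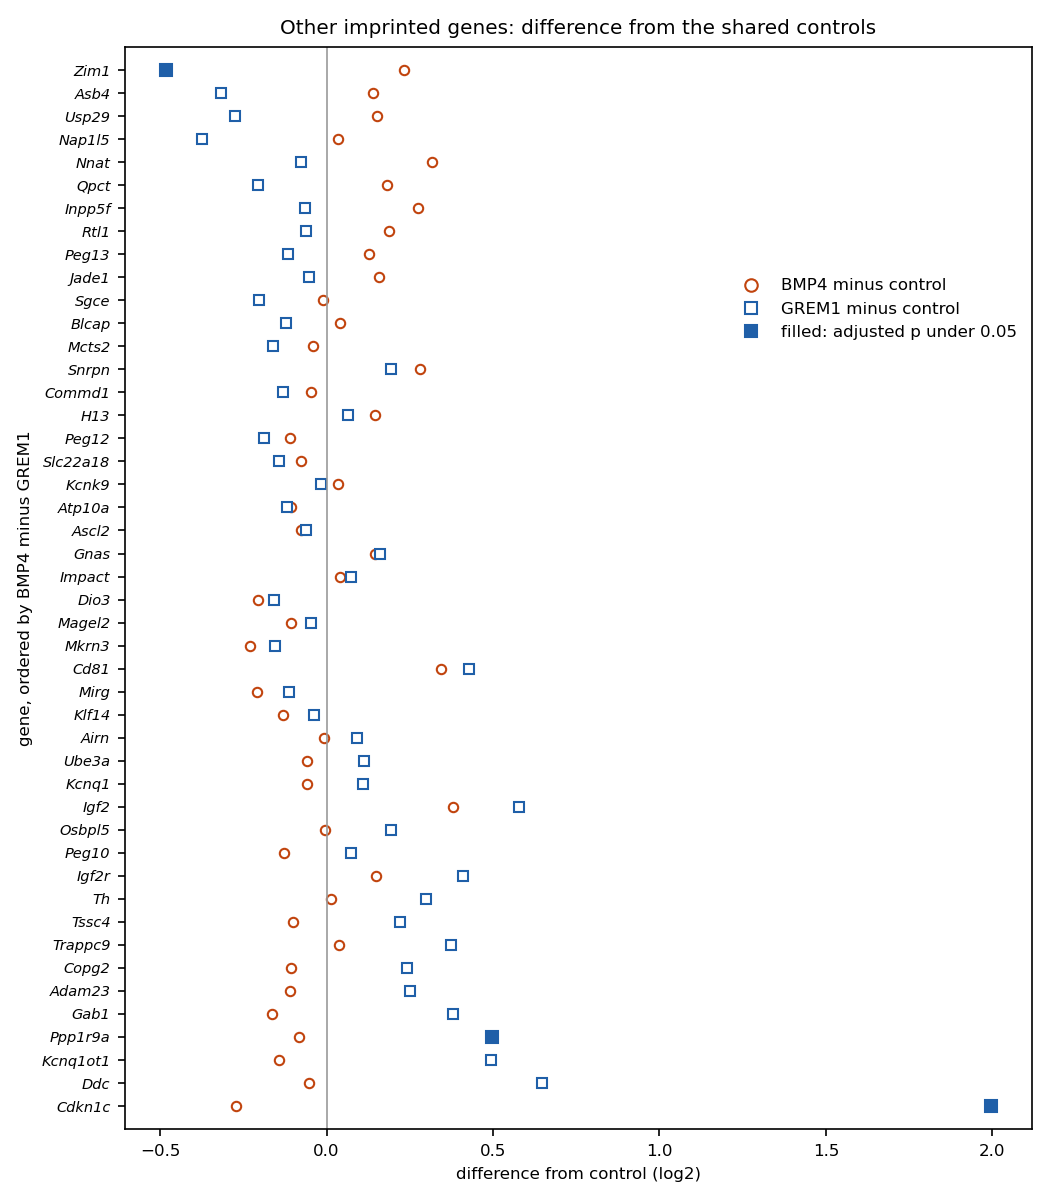
Difference from control in log2 units of the 46 other imprinted genes tested, with BMP4 as circles and GREM1 as squares, ordered by the difference between BMP4 and GREM1; filled symbols have an adjusted p under 0.05. Cdkn1c at 2.00 lies far from the other genes, which are between -0.48 and 0.65; both comparisons use the same 3 controls.

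Genes that write, keep or erase imprints were a list of 19 tested genes, with Tet1, Tet2 and Tet3 among them. The list gave 0 calls against control with either protein in limma. Of all tested genes 0.117% were called with BMP4 and 4.29% with GREM1. An unadjusted p under 0.05 was found for 1 of the 19 with BMP4 and 8 with GREM1, against 8.02% and 20.0% of all tested genes. With the replicate number as a block 1 rose and 4 fell with GREM1, where 11.6% of all tested genes were called. Zfp57 was the 1 of the 19 that passed between BMP4 and GREM1 in the main fit, where 6.45% of all tested genes passed (2.83% lower). It encodes a zinc-finger protein that protects methylation at imprinted loci and was lower with BMP4 (-0.45 ± 0.093, limma adjusted p = 0.0199). The chromatin remodeller Hells and the maintenance methyltransferase Dnmt1 were at -0.58 and -0.41 between GREM1 and control (limma adjusted p = 0.0725 and 0.0736).

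Levels of the 10 genes also moved with the array number in the labels. For 7 of the 10 the arrays numbered 3 were at the same end of all 3 groups, as for 23.8% of all tested genes: highest for Plagl1, Peg3, Mest and Grb10 and lowest for Meg3, Rian and Zdbf2. For Plagl1 with GREM1 the margin was small (8.60 against 8.59). Peg3 and Mest thus rose and fell on the same arrays within each group, while between BMP4 and GREM1 they differed in opposite directions. The mean level of 28 genes of dividing cells also moved with the array number and with GREM1. It was 8.08, 8.20 and 8.61 in the controls, 8.19, 8.27 and 8.72 with BMP4 and 7.60, 7.61 and 7.91 with GREM1, so that the array numbered 3 was highest in each group, as for Peg3 and Mest. Its group mean was lowest with GREM1, where Peg3 was lowest and Mest highest. Of these 28 genes 7 fell with GREM1 against control, among them Mki67 (-0.81) and Tyms (-0.99), with a median of -0.61, and all 28 were below 0, where 2.21% of all tested genes fell. Of 28 myogenic genes 6 rose with GREM1 and 0 fell in limma, where 2.08% and 2.21% of all tested genes did. The 6 rises were in Ckm, Mymx, Itga7, Cdh15, Mef2d and Mef2a (0.87 to 1.70). In either direction 14 of the 28 had an unadjusted p under 0.05, against 20.0% of all tested genes. Below 0 were 5, Myf5 (-0.85 ± 0.29, limma adjusted p = 0.144), Pax3 (-0.44), Myf6 (-0.28), Pax7 (-0.20) and Vcam1 (-0.15), of which the first 4 are transcription factor genes of muscle stem cells and early or late myogenic steps. The mean level of the 28 was 9.68 to 9.94 in the controls, 9.68 to 9.93 with BMP4 and 10.10 to 10.17 with GREM1. The part of dividing and differentiating cells in the differences of the 10 genes was not tested.

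**Figure D4:**
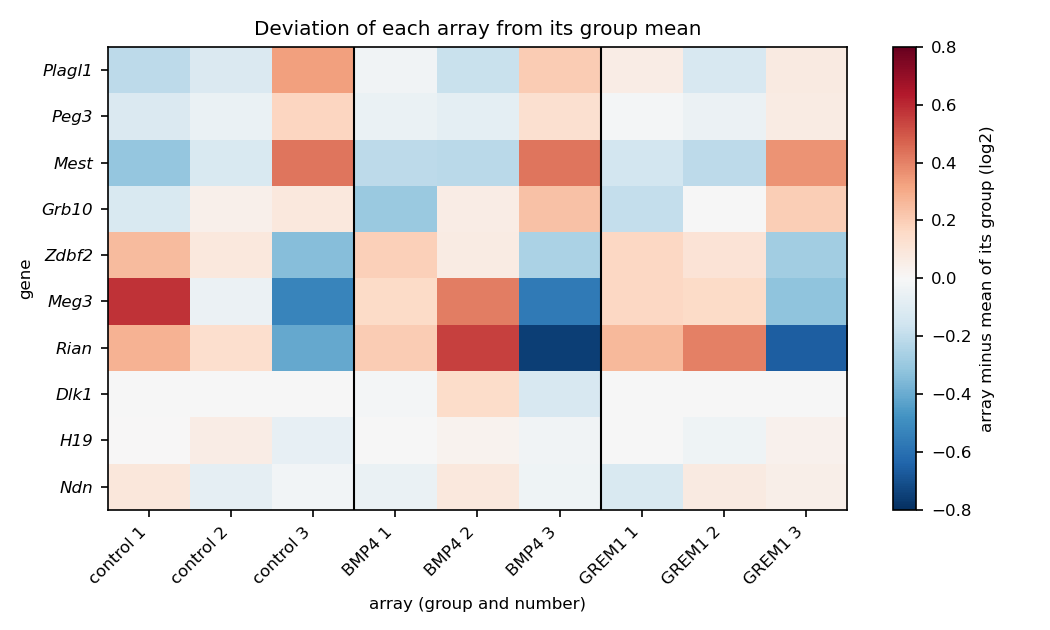
Deviation of each array from the mean of its group in log2 units for the 10 genes, by colour, with arrays in columns. In all 3 groups the columns numbered 3 are above the group mean (red) for Plagl1, Peg3, Mest and Grb10. They are below it (blue) for Zdbf2, Meg3 and Rian. The red is faint for Plagl1 and Peg3 with GREM1 and for Grb10 in the controls, and H19 and Ndn are pale.

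The genes most like each called gene over the 9 arrays, by Pearson's r as a description, were read from all tested genes. The 9 arrays share groups and numbers. Plagl1 was followed by Crim1, a BMP-binding membrane protein (0.99), the glycolytic enzyme Pfkp (0.99) and Ext1, an enzyme of heparan sulfate synthesis (0.99). Peg3 was followed by the membrane-cytoskeleton linker Ezr, the phospholipase Pla2g4a and the endocytic adapter Dab2 (0.99 each), Mest by Septin9, Frmd6 and Cavin2 (0.97 each), and Grb10 by Adgrl3, Gamt and Sdf2l1 (0.97 each). Crim1, Pfkp and Ext1 differed between BMP4 and GREM1 by 1.62, 0.72 and 1.72, beside 1.57 for Plagl1. Since they were picked by likeness over the same arrays, a shared direction between groups is part of the choice.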

How the data were processed

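Total RNA of 9 samples was amplified with SPIA-based Nugen kits, labelled with biotin and hybridised to 1 Affymetrix array each, per the labels' protocols. The deposited log2 values came from the authors' run of Expression Console (Affymetrix) with RMA, as the submitters' processing notes list these tools. RMA corrects background, normalizes between arrays and summarises probe sets. Array model, chip definition and genome build: not given in the sources used here. Of 24973 probe sets 24015 had 1 symbol in GEO's platform table, 0 had several and 958 had none and were left out. The probe set with the highest mean was kept per gene, which left 24011 genes, of which 17141 had at least 3 arrays above the 30th percentile of their array. All 10 genes were found in RefSeq by Entrez number under the same symbol.

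Groups were taken from the sample titles. Differences were fitted in R 4.3.3 with limma 3.58.1 on all 9 arrays (6 residual degrees of freedom), two-sided, with Benjamini-Hochberg adjustment over all tested genes. The fit was tested on simulated data. Alternatives were the replicate number as a block, only the groups compared, a variance trend, array weights, quantile normalization once more, median centring, no filter, a filter at the 50th percentile, the mean of probe sets, and leaving out each array. Leaving out the 3 arrays numbered 3 was added after seeing the data. The 10 genes and the lists were chosen with earlier results of these data known. The named genes are all 10, up to 8 of each list past the threshold (or the 2 with the smallest p), Igf2, Cdkn1c, Igf1r, Insr and cell type markers, and the 3 genes most like each called gene. Neighbours in the imprinted domains were chosen after their values were seen. RefSeq GRCm38.p6 supplied promoters for 9 of the 10 genes.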

Additional observations from a re-analysis of the deposited data

How the results depend on the processing

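Over the 30 differences of the 10 genes and their alternatives, 520 of 564 values kept their direction and side of the threshold, 15 lost and 15 gained a call, and 14 changed sign, with the cause not tested. The 14 were all of differences that passed in no analysis. For BMP4 minus control they were Meg3 (0.22 with array weights and 0.0036 with median centring, -0.29 to 0.26 leaving out 1 array), Ndn (0.029 with array weights, -0.087 to 0.0013 leaving out 1 array), H19 (0.016 with median centring, -0.051 to 0.011 leaving out 1 array) and Grb10 (-0.24 to 0.022 leaving out 1 array). For GREM1 minus control they were H19 (-0.028 after quantile normalization once more, -0.015 without the arrays numbered 3), Meg3 (-0.48 to 0.070 leaving out 1 array) and Rian (-0.43 to 0.099), and for BMP4 minus GREM1 Meg3 (-0.019 to 0.47). Dlk1 and Rian had no value with the filter at the 50th percentile.

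The 1 gene called of the 10 for GREM1 minus control became 2 with array weights, 3 after quantile normalization once more, 2 without the arrays numbered 3 and 0 to 2 leaving out 1 array. The 4 called for BMP4 minus GREM1 became 1 to 4 leaving out 1 array. For BMP4 minus control the count stayed 0 in the 19 alternatives. Of the other imprinted genes, the 3 called for GREM1 minus control became 7 with array weights, 5 after quantile normalization once more, 5 with the filter at the 50th percentile and 1 to 4 leaving out 1 array. The 7 for BMP4 minus GREM1 became 4 to 7 leaving out 1 array. Of all tested genes, 735 were called for GREM1 minus control in the main fit and 245 to 901 leaving out 1 array. For that comparison, counts of all genes under the other settings named in this paragraph are not given here. The changes are thus not read as particular to these genes.

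Arrays with the same replicate number correlated in their deviations from the group means at 0.088 to 0.58, against -0.47 to 0.23 for different numbers. Since 1 pair, at 0.088, missed the level taken for pairing, the number was not treated as a design factor. For the 10 genes alone the correlations were 0.63 to 0.96 for the same number and -0.93 to 0.84 for different numbers. The main fit thus keeps in its error any spread that arrays of the same number share. With the replicate number as a block, the count for GREM1 minus control was 5 of the 10 (Plagl1, Peg3, Mest, Grb10 and Zdbf2) and 9 of the other imprinted genes, and for BMP4 minus GREM1 Rian (limma adjusted p = 0.00992) and Zdbf2 (limma adjusted p = 0.00184) passed beside the 4. Of the other imprinted genes, Igf2 and Ddc passed with the block for GREM1 minus control (limma adjusted p = 0.0127 and 0.00429). In that comparison the block also moved the count to 23 lower of 28 genes of dividing cells. Of 28 myogenic genes 9 were higher and 2 lower (Myf5 and Pax3), and of 33 insulin and IGF genes 9 were higher and 2 lower. Of the 19 genes that write, keep or erase imprints 1 was higher and 4 lower. Erbb3 passed too (limma adjusted p = 0.00406). For BMP4 minus GREM1 these lists had 26 higher, 1 higher and 8 lower, 2 higher and 11 lower, and 3 higher and 1 lower. These lists were rerun only with the block. All tested genes called with the block were 65, 1985 and 2192 for BMP4 minus control, GREM1 minus control and BMP4 minus GREM1, or 0.379%, 11.6% and 12.8% of those tested, against 20, 735 and 1106 without it. In the same order of comparisons, these counts were 2 to 17, 245 to 901 and 563 to 1159 leaving out 1 array. In fits of only the groups compared they were 5 for BMP4 minus control and 437 for GREM1 minus control, and with array weights 68 for BMP4 minus control and 1768 for BMP4 minus GREM1. For BMP4 minus control they were also 31 with the filter at the 50th percentile and 2 without the arrays numbered 3.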
